A study of Mus musculus with 16 samples.

Results

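The 10 genes described here encode AP-1, BATF and IRF transcription factors, namely Fos, Fosb, Fosl2, Jun, Junb, Jund, Batf, Batf3, Irf4 and Irf8. They were taken by symbol and were 10 of the 13275 genes in the deposited count table. Their ATAC regions were those overlapping the gene body or 2 kb at either end, 25 of 72327 regions in tumour T cells and 29 of 73648 in cultured T cells. Every library came from CD8+ T cells of Pmel mice, whose T cell receptor recognises a melanocyte antigen, carrying an LC3-GFP-RFP reporter of the autophagosome protein LC3. Before the sort, all cells had 3 days of stimulation through CD3 and CD28 (antibodies at 2 µg/ml each, with IL2 at 100 IU/ml) and 24 h of carbon monoxide (CO). RNA was sequenced from 2 LC3-GFP positive and 2 LC3-GFP negative libraries. ATAC-seq, in which the transposase Tn5 marks open chromatin, was run on T cells recovered from tumours and on 2 LC3-GFP positive and 2 LC3-GFP negative libraries of cells sorted in vitro. For the tumour libraries, sorted cells were given to C57BL/6 mice on day 12 of B16-F10 melanoma growth, and 15 days after transfer the Vβ13+CD8+ cells of each tumour were sorted (4 mice that received LC3-GFP positive cells and 4 that received LC3-GFP negative cells). Cells without CO were not analysed here, and for RNA and in vitro replicates the labels name no separate animals or cultures. The p-values thus cover the spread among these libraries only, and that spread may be technical.

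FOS and JUN proteins are basic leucine zipper (bZIP) factors that pair through their zippers, and the pairs bind DNA as AP-1. BATF and BATF3 are short bZIP proteins that take the place of FOS proteins beside JUN proteins, and BATF-JUN pairs bind composite DNA elements together with IRF4 or IRF8. In T cells the T cell receptor acts through MAP kinases and calcineurin on these factors. In mouse CD8+ T cells BATF and IRF4 are required for effector expansion, and JUN and IRF4 levels have been tied to effector function and exhaustion.

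The RNA libraries held 14567540 to 17557628 counts. For the marker lists in this paragraph, the shares to compare are those of all 12022 tested genes, 11.3% called higher and 13.6% called lower. Markers of other cells moved with the sort, and those of B and plasma cells were low. Of 5 tested B and plasma cell markers 4 were higher (fewer without positive replicate 1) and 0 lower. The 7 listed genes summed to 14.5 and 13.2 CPM (counts scaled to library size) in positive libraries and 5.11 and 6.36 CPM in negative libraries. Pax5 and Ighm were not listed, Ms4a1 had 0 counts in negative replicate 1, and Cd22 had 0 counts in negative replicate 2. Of 9 tested macrophage, monocyte and dendritic cell markers 3 were higher and 3 lower, with sums of 74.1 and 79.4 CPM in positive libraries and 83.3 and 88.5 CPM in negative libraries. H2-Ab1 made up most of each sum, at 46.7 and 52.2 CPM in positive and 67.0 and 71.3 CPM in negative libraries. By log2 fold change, Mpeg1 (5.06), H2-Aa (3.87) and Cd74 (3.84) were higher. Cd68 (-1.54), Xcr1 (-1.22) and H2-Ab1 (-0.48) were lower. Lyz2, Csf1r, Adgre1, Clec9a and Siglech were not listed. Of 3 tested CD4 T cell markers, Cd4 was higher and Zbtb7b and Gata3 were lower. The 4 listed CD4 T cell markers summed to 88.4 and 84.1 CPM in positive and 119 and 108 CPM in negative libraries. The CD8 T cell markers were present in every library, and 7 of the 9 tested were lower (1 without positive replicate 1, 2 without positive replicate 2, 2 with scaling by library size alone, 5 with DESeq2), with sums of 3425 and 3426 CPM in positive libraries and 3828 and 3803 CPM in negative libraries. The ribosomal RNA gene Rn45s took 1.43% and 1.51% of counts in positive libraries and 3.20% and 3.58% in negative libraries, and leaving it out changed no call among the 10 genes. B cells and dendritic cells also use Irf4, Irf8 and Batf3, and the part of the marker differences in the results that follow was not tested. In bulk RNA, fewer cells of a type and less RNA per cell cannot be told apart.

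The windows below are the 250 bases before the RefSeq start (GRCm38.p6) of the 4 genes on which the RNA and chromatin results mainly turn. They are written 5′ to 3′ on the gene's strand and end next to the start. Fosl2 lies at chr5:32136222-32136471 (+), Jun at chr4:95052223-95052472 (-), Batf3 at chr1:191098164-191098413 (+) and Irf8 at chr8:120736108-120736357 (+). Capitals mark matches on either strand to a CRE-like octamer (TGACNTCA), an IRF element (2 GAAA blocks, 2 free bases apart), a STAT element (TTCNNNGAA), an E-box (CACGTG) or a TATA box (TATAAA).
Fosl2: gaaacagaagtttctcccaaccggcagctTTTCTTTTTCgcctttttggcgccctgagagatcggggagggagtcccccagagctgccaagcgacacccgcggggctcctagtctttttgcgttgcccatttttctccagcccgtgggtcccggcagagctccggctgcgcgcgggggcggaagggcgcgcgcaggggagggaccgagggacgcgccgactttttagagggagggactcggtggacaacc
Jun: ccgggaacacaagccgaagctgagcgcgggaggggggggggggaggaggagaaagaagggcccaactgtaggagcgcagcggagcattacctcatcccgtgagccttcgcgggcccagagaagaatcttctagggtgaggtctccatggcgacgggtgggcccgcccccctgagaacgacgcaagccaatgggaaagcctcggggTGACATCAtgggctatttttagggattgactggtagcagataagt
Batf3: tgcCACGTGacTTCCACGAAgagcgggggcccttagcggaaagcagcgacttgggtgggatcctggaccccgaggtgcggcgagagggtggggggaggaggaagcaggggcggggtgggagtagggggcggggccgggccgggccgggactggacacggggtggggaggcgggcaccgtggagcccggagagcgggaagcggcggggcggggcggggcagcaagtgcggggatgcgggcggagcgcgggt
Irf8: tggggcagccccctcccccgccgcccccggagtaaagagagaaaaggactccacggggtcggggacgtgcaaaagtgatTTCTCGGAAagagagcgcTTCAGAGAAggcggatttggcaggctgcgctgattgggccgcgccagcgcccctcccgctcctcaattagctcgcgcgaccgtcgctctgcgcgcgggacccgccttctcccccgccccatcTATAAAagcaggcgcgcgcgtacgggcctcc
The Jun match to TGACNTCA began 45 bases before the start, and this octamer, which AP-1 and CREB/ATF proteins can bind, was in 7.49% of 32851 RefSeq promoter windows of the same length. The Fosl2 match to the IRF element read on the other strand, began 221 bases before the start and belonged to a motif found in 2.98% of windows. TTCNNNGAA, found in 7.02% of windows, began 239 bases before the Batf3 start and at 171 and 153 bases before the Irf8 start. The Batf3 window also held CACGTG, found in 6.02% of windows, 247 bases before the start. TATAAA, found in 12.4% of windows, stood 33 bases before the start of Fos, 26 before Irf4 and 31 before Irf8. The AP-1 element TGANTCA was in 6.75% of windows and in 0 of the 10, and the NFAT core GGAAA (both strands, not capitalised) was in 55.6% of windows and in 4 of the 10. These matches are descriptions of letters and not of binding.

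The transcripts of the family moved in different directions between LC3-GFP positive and negative cells. Batf, Batf3 and Irf4 were higher in positive cells, Fosl2, Jun, Jund and Irf8 were lower, Fosb and Junb did not pass the test, and Fos was too low to be tested. Among the called genes the size ran from a 2.04-fold lower level of Fosl2 to a 1.48-fold higher level of Batf3. Of 9 members tested, 3 were thus called higher, where 11.3% of all 12022 tested genes were, and 4 were called lower, where 13.6% of all tested genes were. Their median log2 fold change was -0.21 and that of all tested genes was 0.002. The positive libraries lay entirely above the negative ones for 4 members (30.6% of all tested genes) and entirely below for 5 (31.0%). Calls rest on edgeR's quasi-likelihood test with a Benjamini-Hochberg adjusted p under 0.05. CPM are not scaled by transcript length, so levels are compared within a gene only.

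**Figure D1:**
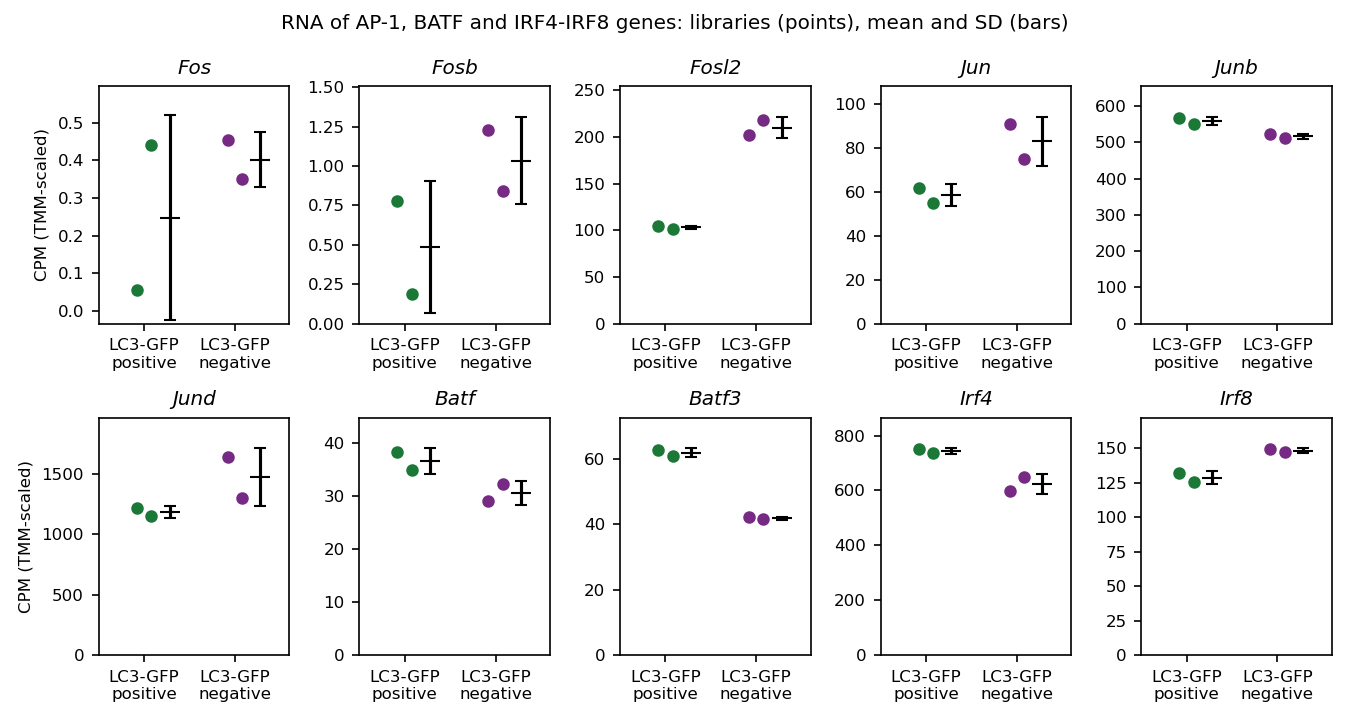
RNA level of each of the 10 genes in CPM (y axis, linear, its own scale for each gene), with LC3-GFP positive libraries left of negative libraries. Points are libraries and bars are the mean with its SD (n = 2 each). Fosl2 averaged 103 CPM in positive libraries and 210 CPM in negative libraries, and Batf3 averaged 61.8 CPM in positive libraries and 41.7 CPM in negative libraries.

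Among the FOS genes, Fosl2 passed the test, Fosb did not and Fos was too low to be tested. Fosl2, which encodes the FOS-related partner FRA-2 (chromosome 5, 32136472 to 32157839, + strand), stood at 104 and 102 CPM in the positive libraries, against 202 and 218 CPM in the negative libraries. Both positive libraries lay far below both negative ones. The means were 103 ± 1.99 CPM and 210 ± 11.5 CPM (SD, n = 2 each), a log2 fold change of -1.03 (SE 0.05, 95% interval -1.14 to -0.91, edgeR adjusted p = 1.88e-10). Of all tested genes, 3.03% changed by more in either direction.

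Fosb, which encodes a partner of the JUN proteins whose gene is induced early after stimulation, had 14 and 3 counts in positive libraries and 19 and 12 in negative libraries (0.780 and 0.188 CPM, against 1.23 and 0.839 CPM). Its positive libraries lay below its negative ones, but positive replicate 2 rested on 3 counts alone. The log2 fold change of -1.05 (SE 0.58, 95% interval -2.28 to 0.18) had an edgeR adjusted p of 0.210, and it was -2.41 without positive replicate 1 and -0.41 without positive replicate 2. Fos itself, the founding member of the family, had 1 and 7 counts in positive and 7 and 5 counts in negative libraries, and the groups overlapped. Its summed, depth-scaled ratio was 0.586, with an exact 95% interval of 0.208 to 1.56 that covers counting error only, so a difference was not detectable at this depth.

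Of the 3 JUN genes, Jun and Jund were lower in positive cells and Junb did not pass the test. Jun, which encodes c-Jun (chromosome 4, 95049036 to 95052222, - strand), had 61.9 and 54.8 CPM in positive libraries, against 90.8 and 75.1 CPM in negative libraries. The groups were apart, with the wider spread among the negative libraries (58.4 ± 5.01 CPM and 83.0 ± 11.1 CPM, SD, n = 2 each). Jun was 1.42-fold lower in positive cells (log2 fold change -0.51, SE 0.08, edgeR adjusted p = 0.000184).

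Jund, whose product is present in resting and activated cells alike (chromosome 8, 70697739 to 70700616, + strand), had 1220.0 and 1151 CPM in positive libraries, against 1642 and 1305 CPM in negative libraries. Negative replicate 1 stood well above the other 3 libraries, and negative replicate 2 stood closer to the positive ones. Jund was 1.24-fold lower in positive cells (log2 fold change -0.31, SE 0.07, edgeR adjusted p = 0.00361), a call that DESeq2 did not make (log2 fold change -0.31, adjusted p = 0.258). The Jund log2 fold change was -0.14 without negative replicate 1 and -0.47 without negative replicate 2, and it was called in both cases. Junb, which encodes a JUN protein that can work with BATF and IRF4, had 567 and 552 CPM in positive libraries, against 522 and 512 CPM in negative libraries (chromosome 8, 84976909 to 84978748, - strand). Its groups did not overlap, but its log2 fold change of 0.11 (SE 0.04, 95% interval 0.02 to 0.20) had an edgeR adjusted p of 0.0642. The edgeR adjusted p of Junb was 0.460 without positive replicate 1, 0.246 without positive replicate 2, 0.00499 without negative replicate 1 and 0.0290 without negative replicate 2.

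Both BATF genes were higher in LC3-GFP positive cells. Batf3, needed in mice for the cross-presenting dendritic cells and expressed by activated CD8+ T cells (chromosome 1, 191098414 to 191108943, + strand), had 62.7 and 60.8 CPM in positive libraries, against 42.1 and 41.4 CPM in negative libraries. The libraries of each group were nearly alike and the groups were far apart (61.8 ± 1.30 CPM and 41.7 ± 0.476 CPM, SD, n = 2 each). The log2 fold change was 0.57 (SE 0.07, edgeR adjusted p = 1.07e-05), and 9.45% of tested genes changed by more. Batf (chromosome 12, 85686720 to 85709087, + strand) had 38.3 and 35.0 CPM in positive libraries, against 29.1 and 32.3 CPM in negative libraries. The groups were apart, but by less than the 2 libraries of either group differed from each other. Its log2 fold change of 0.26 (SE 0.09, edgeR adjusted p = 0.0375) was not called by DESeq2 (adjusted p = 0.193), without positive replicate 1 (0.19, adjusted p = 0.316) or without negative replicate 1 (0.18, adjusted p = 0.185).

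The 2 IRF members went opposite ways. Irf4, which T cell receptor signals induce in proportion to their strength (chromosome 13, 30749233 to 30766981, + strand), had 750 and 735 CPM in positive libraries, against 599 and 649 CPM in negative libraries. Both positive libraries lay above both negative ones, for a 1.19-fold higher level (log2 fold change 0.25, SE 0.05, edgeR adjusted p = 0.000653). Irf8, the close relative of Irf4 that directs dendritic cell and B cell development and is induced in activated CD8+ T cells (chromosome 8, 120736358 to 120756692, + strand), had 132 and 125 CPM in positive libraries, against 149 and 147 CPM in negative libraries. It was lower, at 0.867 of the negative level and with no overlap (log2 fold change -0.21, SE 0.05, edgeR adjusted p = 0.00649). The Irf8 call was lost without positive replicate 2 (-0.17, adjusted p = 0.152). Both IRF genes had estimated counts that were not whole in the deposited table, and the other 8 had whole counts.

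**Figure D2:**
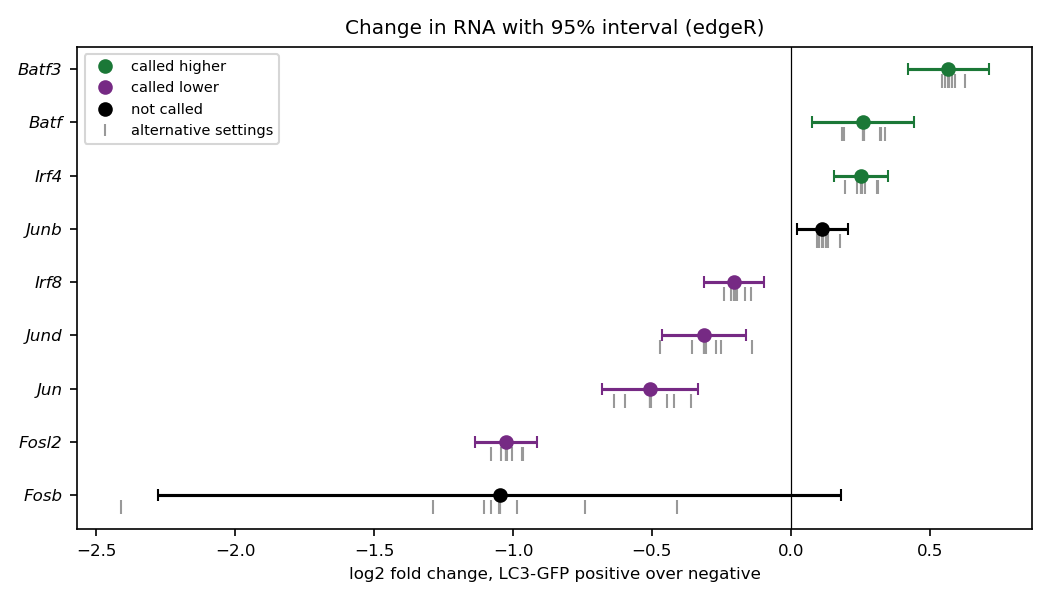
Log2 fold change of LC3-GFP positive over negative cells for the 9 tested genes (x axis), with 95% intervals as bars. Batf3 at 0.57, Batf at 0.26 and Irf4 at 0.25 lay right of 0, Fosl2 at -1.03 and Jun at -0.51 lay left of it, and the interval of Fosb crossed 0.

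Fosl2, Jun, Batf3 and Irf4 were called in the same direction under every alternative tried on the RNA. The genes whose pattern over the 4 RNA libraries was nearest to that of Batf3, among 8895 genes with a mean of at least 10 CPM, were Ndufaf4, Ccne2 and Aff3, at distances of 0.0271, 0.0471 and 0.0558 in centred log2 CPM. Nearest to Fosl2 were Mirt1, Bcl2l11 and Il18rap, at distances of 0.0468, 0.107 and 0.108. Over only 4 libraries, a small distance mainly means a like change between the groups, and shared regulation was not tested. Bcl2l11, which encodes the pro-apoptotic protein BIM, had 59.7 and 59.4 CPM in positive libraries and 114 and 115 CPM in negative libraries.

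Genes that act with or upstream of these factors were taken from lists of known partners. For each list here and below, the shares to compare are those of all 12022 tested genes, 11.3% called higher and 13.6% called lower. Of 12 tested other AP-1 and bZIP genes, 2 were higher and 3 lower, with a median log2 fold change of -0.20. The bZIP genes lower in positive cells were the small MAF gene Maff (-0.78), the repressor gene Nfil3 (-0.55) and Bach1 (-0.52), a repressor that pairs with small MAF proteins. Those higher were the stress-induced Atf3 (0.34) and another small MAF gene, Mafk (0.25), and neither was called by DESeq2 or without positive replicate 2. Mafk was also not called without positive replicate 1 or without negative replicate 2. Fosl1, the closest relative of Fosl2, averaged 1.46 CPM in positive libraries and 1.10 CPM in negative libraries, with a log2 fold change of 0.39 (edgeR adjusted p = 0.540), and Batf2 was not listed. Of the 7 other IRF genes tested, 0 were called by edgeR or DESeq2 in either direction, and 1 had an unadjusted edgeR p under 0.05. Their median was 0.02. Of the 5 tested ETS and Ikaros partners only Ikzf3 was called, at -0.32, and their median was 0.03. Spi1, which encodes the partner PU.1 of IRF4 and IRF8 in B and myeloid cells, had 0.111 and 0.816 CPM in positive libraries and 0 counts in both negative libraries.

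In each of the next lists, which include upstream genes, more genes were called lower than higher. With scaling by library size alone, this held for the dual specificity phosphatases only. Of 9 tested NFAT and calcineurin genes, Nfat5 was higher (0.22) and the calcineurin catalytic genes Ppp3ca and Ppp3cc were lower (both -0.17), while Nfatc1 (0.07, edgeR adjusted p = 0.284) and Nfatc2 (-0.03, adjusted p = 0.740) did not pass the test. The list median was 0.02. Ppp3ca and Ppp3cc were not called by DESeq2, with scaling by library size alone or without either positive replicate. Ppp3ca was also not called by edgeR with DESeq2 size factors or without negative replicate 1, nor was Nfat5 without positive replicate 1. Of 16 tested genes of the MAP kinase pathway, 1 was higher, the kinase gene Map3k7 (0.32), and 4 were lower, among them Map3k1 (-0.31), Mapk3 (-0.26), which encodes ERK1, and the ETS factor gene Elk3 (-0.17), with a list median of -0.06. Elk3 was not called by DESeq2, with library size alone, or without positive replicate 1 or negative replicate 2. Of 10 dual specificity phosphatases, many of which remove phosphate from MAP kinases, 0 were higher and 3 lower. The lower ones were Dusp6 (-0.70), Dusp5 (-0.39) and Dusp22 (-0.31), the last not called by DESeq2 or without positive replicate 2. The median of the 10 was -0.195. Of 9 other immediate early genes, Myc was higher (0.18) and Egr1 (-0.77) and Ier3 (-0.49) were lower, with a median of 0.16. Egr1 was not called by DESeq2, nor without either positive replicate or without negative replicate 1, and Myc was not called without either positive replicate.

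T cell genes known to respond to AP-1, NFAT or BATF-IRF4 were also called lower more often, with 1 higher and 5 lower of 17 tested. Their median was -0.11. Il2ra, the IL2 receptor alpha chain, was higher (0.29). The inhibitory receptor genes Havcr2 (-1.07) and Lag3 (-0.54) and the cytokine gene Il10 (-1.03) were lower, as were the costimulatory receptor genes Tnfrsf9 and Tnfrsf4. Havcr2 had 32.9 and 32.5 CPM in positive libraries and 74.0 and 63.1 CPM in negative libraries. Il2, Il21 and Il3 were not listed.

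**Figure D3:**
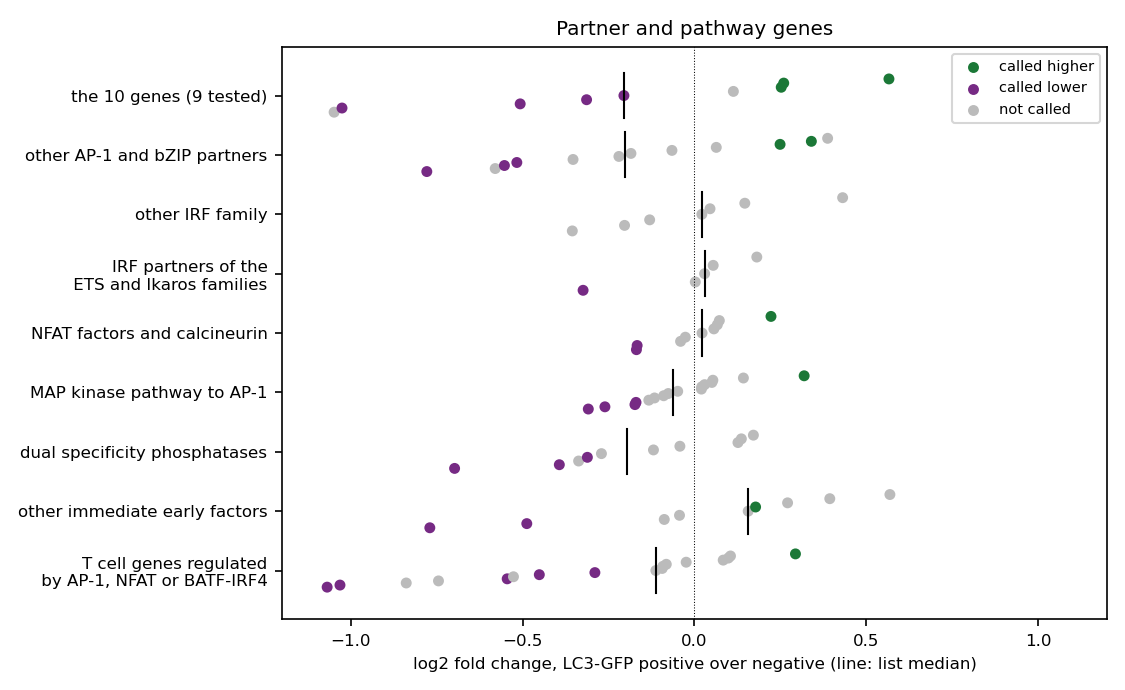
Log2 fold change of LC3-GFP positive over negative cells (x axis) for the 10 genes and the lists of partner and pathway genes (rows). Points are genes, coloured by their edgeR call, and the vertical line in each row is the median. The medians run from -0.21 for the 10 genes to 0.16 for other immediate early factors.

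In chromatin, 7 of the 10 genes had a peak over the start site itself in all 12 libraries, the exceptions being Jun, Junb and Jund, and no region separated the groups in tumour T cells. Tumour libraries held 27406 to 37477 peaks in the positive group and 33704 to 55171 in the negative group, and in vitro there were 63761 and 53869 peaks in positive libraries and 56476 and 49634 in negative libraries. Of the tumour libraries, negative replicate 2 had the most peaks and stood apart at these genes, with 3 member regions found in no other tumour library and 1 that all the others had. Peaks were merged into regions across libraries, and distances are from the gene start to the middle of the region.

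In tumour T cells, 15 of 25 member regions had a peak in all 8 libraries, against 38.3% of the 39935 regions at listed genes. No member region was found in all positive and no negative libraries (0.616% of regions) or in all negative and no positive libraries (0.846%). Without negative replicate 2, 16 of 22 regions were in every library and these 2 counts were again 0. The number of peaks per gene per 10000 peaks overlapped between the groups for all 10 members, with exact two-sided permutation p from 0.171 for Fosl2 and Jund to 0.971, where 0.0286 is the smallest that 4 against 4 allows. These scaled numbers depend largely on list length. Irf4 had 3 peaks in each of the 8 libraries, yet its scaled means were 0.881 in positive and 0.749 in negative libraries (permutation p = 0.343). The test thus says little about chromatin at a gene. Among all genes with regions, positive libraries lay above the negative ones without overlap for 2.88% and below for 1.37%.

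In vitro, 16 of 29 member regions had a peak in all 4 libraries (58.3% of the 42922 regions at listed genes). The region 21.4 kb from the Irf8 start (chromosome 8, 120757425 to 120758070), just past the gene's end, had peaks in both positive and in neither negative library, where 6.84% of regions did. Its summit pileups were 83 and 64, and its fold enrichment over local background was 1.7 and 1.8. The region 6.5 kb from the Batf3 start (chromosome 1, 191104449 to 191105287), within the gene, had peaks in both negative libraries, with pileups of 50 and 37, and in neither positive library, where 2.97% of regions did. Fold enrichment at this Batf3 region was 2.8 and 3.4. Batf3 RNA was higher, and Irf8 RNA lower, in positive cells. With 2 libraries a group, neither region was tested. Both regions had peaks in 0 of 8 tumour libraries. The pileups and fold enrichments are the authors' values, and the pileups are not scaled between libraries.

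The Batf3 and Irf8 start sites lay under a peak in every library. At the tumour Batf3 start the pileups were 19, 35, 49 and 45 in positive libraries and 60, 59, 75 and 50 in negative libraries, and the authors' fold enrichment over local background ran from 2.90 to 3.16 in positive and 3.31 to 3.77 in negative libraries. Both values were lower in every positive library. Positive replicate 1, with the pileup of 19, had the shortest tumour list (27406 peaks). At the Irf8 start the pileups were 47, 72, 80 and 75 in positive and 84, 96, 87 and 82 in negative libraries, while the fold enrichment was 7.19 to 9.09 in positive and 4.42 to 7.14 in negative libraries, so that the 2 values pointed in opposite directions. In vitro the fold enrichment at the Irf8 start was 2.56 and 3.10 in positive libraries and 4.12 and 4.00 in negative libraries, the other way round from the tumour. At the Batf3 start it was 2.85 and 2.69 in positive libraries and 2.72 and 3.07 in negative libraries in vitro, and the groups overlapped. In the tumour, where peaks were called, fold enrichment was also higher in every positive library at regions away from the start. These lay at Fosl2 (12.4 kb), Fosb (8.6 kb), Irf4 (11.6 and 17.7 kb) and Irf8 (15.9 kb). The pileups did not all go the same way. At the Fosb region they were lower in positive libraries, at 39, 57, 61 and 70, against 76, 104 and 76 in negative libraries with a peak. Those at the Fosl2 and Irf4 regions overlapped between the groups. At the Irf8 region they were 20, 28, 33 and 27 in positive and 18, 18 and 14 in negative libraries with a peak. No test was made, because these values depend on each library's depth, which is not in the lists. The share of all start sites or regions with groups apart in these values was not counted, so none of them can be called unusual.

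The other genes differed mainly in how many regions they had. Merged over all 12 libraries, there were 33 member regions, 6 at Irf8, 5 each at Fosl2, Batf and Batf3, 4 at Irf4, 3 at Fosb, 2 at Jund and 1 each at Fos, Jun and Junb. Of these, 13 had a peak in all 12 libraries (39.4%, against 28.3% of 52139 regions at listed genes). Every member had at least 1 such region, which as merged covered the start site at 9 genes and at Jund lay downstream of it. Irf4 also had a region 11.6 kb from its start in all 12 libraries, Batf had another at 18.2 kb and Batf3 another at 12.5 kb. None was in all 8 tumour and none of the 4 in vitro libraries (0.159% of regions), or in all in vitro and no tumour libraries (4.85%). The 250 bases before the start held a peak in all 12 libraries for 7 of the 10 genes, against 35.9% of 27025 genes. These are RefSeq genes, more than the 13275 of the count table from which the 10 were taken, so the 2 shares are not strictly alike. At Jun such a peak was called in 7 of 8 tumour and 4 of 4 in vitro libraries, at Junb in 7 of 8 and 1 of 4, and at Jund in 0 of 8 and 0 of 4.

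**Figure D4:**
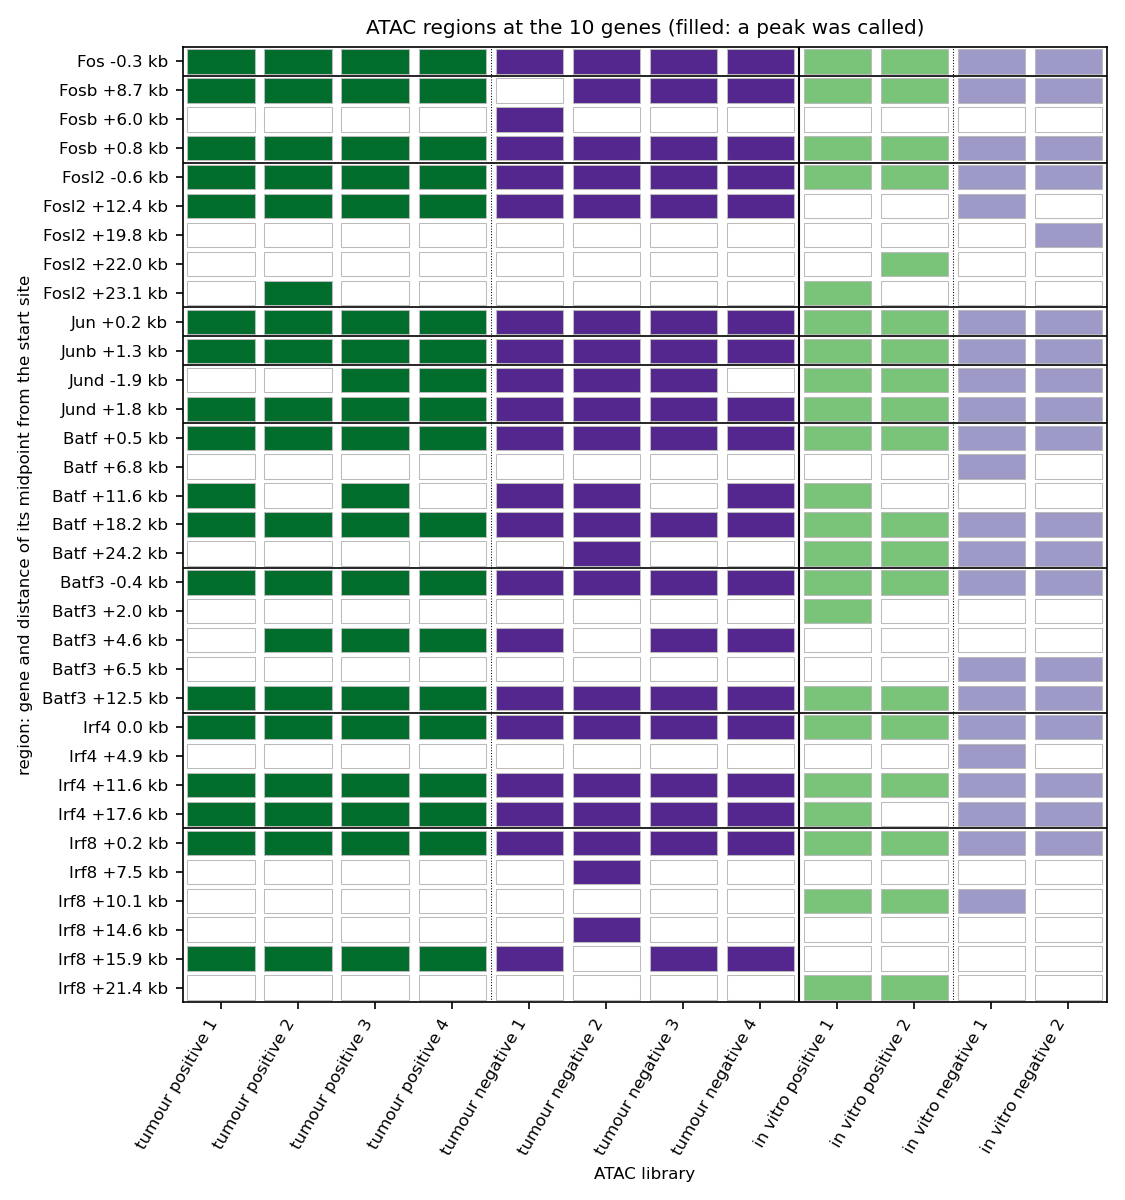
Regions at the 10 genes (rows, with distance in kb from the gene start) by ATAC library (columns, tumour left of in vitro and LC3-GFP positive left of negative). A filled cell means that a peak was called. The region nearest the start is filled in all 12 libraries for every gene, while the Batf3 region at 6.5 kb is filled in the 2 negative and the Irf8 region at 21.4 kb in the 2 positive in vitro libraries.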

How the data were processed

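RNA was deposited as the authors' estimated counts per gene, unscaled. Per the submitters' processing notes it was made with Partek, STAR and DESeq2 on mm10. The ATAC peaks came from Partek, cutadapt, BWA and MACS2 on mm10, by the same notes. Versions, the counting method, strandedness and any shift for the Tn5 cut are not given in the sources used here. Without strand, reads of a gene and an antisense partner cannot be told apart, though no other RefSeq gene overlapped a member. Each peak names 1 library, so peaks were called per library. Per the file headers, the deposited peak values are length in bp, pileup signal at the summit, fold enrichment (a ratio to local background), and −log10 of the p-value and q-value. ATAC read depth is unknown from these lists.

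Estimated counts were rounded, filtered with filterByExpr, scaled by TMM and tested with edgeR 4.0.16 (glmQLFit, glmQLFTest) over all genes, with p adjusted by Benjamini-Hochberg and called under 0.05. CPM were computed on TMM-scaled sizes; 3 counts were 0.167 to 0.210 CPM. DESeq2 1.42.0, other scalings, a replicate block, no filter and omission of Rn45s or of each library were alternatives. Peaks overlapping by 1 bp were merged, and peaks per gene compared by exact permutation tests (scipy 1.17.1). Start and end are 1-based on mm10. Exons, introns and UTRs were not used here. RefSeq promoters (GRCm38.p6) matched all 10 genes, with 2 entries for Irf8, of which the one at the deposited gene start was used. Of the lists, up to 3 called genes in each direction with the largest change are named, with Spi1, Fosl1, Batf2, Nfatc1, Nfatc2 and the 3 nearest patterns of the most changed called members; the absent or zero markers, Tnfrsf9 and Tnfrsf4 and the CD4 markers are named besides. The members and lists were chosen with earlier results of these data known. Some genes of the lists are not reported here.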

Additional observations from a re-analysis of the deposited data

Results flagged for a closer look

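In tumour T cells, 6 library counts of peaks lay apart from the other 3 of their group, by Dixon's 95% criterion for 4 values (0.829). In each case the other 3 libraries were tied with 1 peak fewer, so the distance is a single peak. Chance sets apart about 1 group in 20 for continuous values, but among 3 tied counts any differing count passes the criterion, so that these 6 of 20 sets of counts carry no information beyond the single peak. LC3-GFP positive replicate 2 had 3 peaks at Fosl2. LC3-GFP negative replicate 1 had 2 peaks at Fos and 3 at Fosb. LC3-GFP negative replicate 2 had 2 peaks at Jun, 2 at Jund and 3 at Irf8. Negative replicate 2 also had the longest tumour list (55171 peaks), and negative replicate 1 had the shortest median peak (765 bp). The part of list length or peak length in these counts was not tested.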

How the results depend on the processing

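No member's RNA change reversed. Scaling by library size alone moved the median of all genes to 0.0645 and gave 2242 genes higher in LC3-GFP positive cells, against 1362 with TMM, so that 65.1% of calls were higher, against 45.4%, and called Junb (0.18, adjusted p = 0.00469). DESeq2 called 1688 genes, 705 higher and 983 lower, and did not call Jund (-0.31) or Batf (0.26). Leaving out 1 RNA library gave 1722 to 3451 calls, 683 to 1615 higher and 1039 to 1836 lower, with the lowest counts without positive replicate 1 and 1806 without positive replicate 2. Over these omissions Batf ranged from 0.18 to 0.34, Irf8 from -0.24 to -0.17, Junb from 0.094 to 0.13, Jund from -0.47 to -0.14 and Fosb from -2.41 to -0.41. The replicate block called 3568 genes, with Junb at 0.11 (adjusted p = 0.0387). The block pairs libraries by replicate number, the only link that the labels give. Between positive and negative cells, the differences of replicate 1 minus replicate 2 had a correlation of 0.0646 over 12022 tested genes. Whether same-numbered libraries came from the same animal or culture was not tested.

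In vitro, a −log10 q of at least 5 left 2 of 20 member regions in the negative group alone. No extension of the gene bodies left 0 of 21 in the positive group alone. An extension of 20 kb gave 80 regions, 7 in the positive group alone, 8 in the negative group alone and 44 in every library. The main setting had 29 regions, and the shares over all regions were not computed under the alternatives. Without 1 in vitro library, the positive group alone had 1 to 4 regions and the negative group alone 1 to 4: 4 in the positive group without positive replicate 2, and 4 in the negative group without negative replicate 2. In the tumour, where the main setting had 25 regions, 20 kb gave 80, with 2 in the negative group alone and 33 in every library. Equal list lengths gave 19 regions, with 1 in the positive group alone and 7 in every library. The cause of these changes was not tested. Peaks are present or absent at a threshold, so an absent peak does not show closed chromatin, and 2 libraries a group limit the RNA and in vitro comparisons.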

Other observations

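Under a looser rule chosen after the values were seen, 3 of the 33 member regions had a peak in at least 6 of 8 tumour and at most 1 of 4 in vitro libraries (9.09%, against 1.43% of 52139 regions at listed genes). The region 12.4 kb from the Fosl2 start (chromosome 5, 32147990 to 32149681) had a peak in 8 of 8 tumour libraries, with summit pileups of 33, 59, 64 and 75 in LC3-GFP positive and 85, 42, 94 and 75 in LC3-GFP negative libraries. The pileups overlapped, but fold enrichment did not, at 6.14 to 7.80 in positive and 3.13 to 5.215 in negative tumour libraries. In vitro this region had a peak in negative replicate 1 alone, with a pileup of 27. The region 15.9 kb from the Irf8 start (chromosome 8, 120751719 to 120752890) had a peak in all 4 positive and 3 of 4 negative tumour libraries, negative replicate 2 being the exception, and in 0 of 4 in vitro libraries. Its fold enrichment was 5.60 to 7.43 in positive libraries and 3.50 to 3.72 in the 3 negative libraries with a peak. Neither difference in fold enrichment was tested. The region 4.6 kb from the Batf3 start (chromosome 1, 191102641 to 191103333) had a peak in 6 of 8 tumour and 0 of 4 in vitro libraries.

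By the mirrored rule, at least 3 of 4 in vitro and at most 1 of 8 tumour libraries, there were 2 member regions (6.06%, against 13.2% of regions). They lay 24.2 kb from the Batf start, found in 1 of 8 tumour (negative replicate 2) and 4 of 4 in vitro libraries, and 10.1 kb from the Irf8 start, found in 0 of 8 tumour and 3 of 4 in vitro libraries. Irf8 thus had regions of both kinds. The tumour and in vitro lists come from separate experiments and the in vitro lists are mostly longer, so that tissue, time and experiment cannot be told apart.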
